A study of Rattus norvegicus with 6 samples.

Results

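A set of 40 genes that encode the enzymes of glycolysis, the transporters of hexoses and lactate, the enzymes that decide the fate of pyruvate, and the oxygen-sensing machinery with some of its target genes was followed in vascular smooth muscle (VSM) cells of the rat. The members were picked by gene symbol for these roles, and all 40 were among the 14475 genes of the count table. VSM cells had been grown out of soleus feed arteries (SFA), the resistance arteries that supply the soleus muscle, of male Fischer 344 rats. The young group held 3 cultures from rats aged 4 months and the old group 3 cultures from rats aged 24 months, and the labels name no treatment, transgene or allele in either group. Both groups had been grown in the same medium with fetal bovine serum and added pyruvate, so the values describe cells in culture and not the arterial wall. Polyadenylated RNA of each culture gave 1 stranded library. The comparison asks whether VSM cells from old SFA differ from those of young SFA in the level of these RNAs, with the young cultures as the reference. The study describes the replicates as separate rats and the labels only number them, so p-values measure the spread between these cultures.

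Glycolysis splits glucose into pyruvate through a chain of cytosolic enzymes and yields ATP without oxygen. Pyruvate is then either reduced to lactate by lactate dehydrogenase and exported through monocarboxylate transporters, or carried into the mitochondrion and oxidized by the pyruvate dehydrogenase complex, which the pyruvate dehydrogenase kinases switch off. When oxygen is low, the alpha subunit of hypoxia-inducible factor (HIF) escapes hydroxylation by the prolyl hydroxylases, pairs with its beta subunit and raises transcription of many glycolytic genes as well as of Vegfa, the vascular endothelial growth factor gene. VSM cells are known to rely on aerobic glycolysis to a large extent, also when oxygen is plentiful.

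Counts per library summed to between 44235674 and 59700887, and levels are given as CPM, counts scaled to library sizes that were normalized by TMM, a method that treats most genes as unchanged. CPM is not corrected for gene length, so levels were compared between libraries and never between genes. Contractile genes of smooth muscle were read in every library, with Acta2 at 4972 to 10381 CPM in young and 1126 to 2201 CPM in old, and Myh11 at 615 to 1615 and 77.9 to 229 CPM. Of the skeletal muscle markers, Myod1, Myog, Pax7 and Ckm were not among the rows, and the 6 markers found summed to between 174 and 391 CPM in young and between 36.4 and 67.2 CPM in old. DESeq2 called Myh1, Myh2 and Acta1 downregulated (3.38% of all genes were). Myh1 was at 58.9 to 138 CPM in young and 2.00 to 27.8 CPM in old, where replicate 3 was highest. Myh2 was at 29.6 to 51.7 and 0.846 to 11.0 CPM, and Acta1 at 72.1 to 256 and 5.97 to 17.6 CPM. Tnnt3 had a higher mean in old, at 7.78 to 12.8 CPM in young and 10.6 to 28.4 CPM in old. Of 10 endothelial markers 6 were among the rows and Cdh5 was not. Pecam1, Kdr, Vwf and Esam were at or below 1.63 CPM in each library. Tek was at 2.64 to 12.5 CPM in young and 11.3 to 16.8 CPM in old, and Erg was at 2.46 to 6.85 CPM in young and 0.362 to 1.85 CPM in old and called downregulated by DESeq2. The 6 summed to between 11.4 and 18.7 CPM in young and between 13.6 and 20.2 CPM in old.

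Library by library, the 40 genes did not behave as a simple contrast of 2 age groups. Old replicate 3 had the lowest level of the 3 old libraries in 33 of 40 members (82.5%), where 34.7% of all genes had their lowest old level in that library. Among the young libraries, young replicate 3 was lowest in 31 of 40 members (77.5%), against 39.2% of all genes. Relative to the young mean, the median member was 0.71 higher on the log2 scale in old replicate 1, 0.67 higher in old replicate 2 and at -0.22 in old replicate 3. In young replicates 1, 2 and 3 the same median was 0.23, 0.04 and -0.26, whereas the median over all genes was at most 0.02 in size in each of the 6 libraries. The 40 genes together took 7653, 6245 and 5284 CPM in young replicates 1, 2 and 3 and 11551, 10250 and 4810 CPM in old replicates 1, 2 and 3. Old replicate 3 was thus below every young library in this sum, while the other two old libraries were above every young library.

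This split was described after the values had been seen and was not tested. Both old replicates 1 and 2 lay above all young libraries in 26 of 40 members (65.0%), and among all genes this held for 19.2%. In 22 members (55.0%) old replicates 1 and 2 were above all young libraries and old replicate 3 was not, compared with 673 of all genes (4.65%). In 10 members (25.0%), namely Pfkl, Aldoa, Tpi1, Pgk1, Pgam1, Eno1, Pkm, Slc16a3, Pdk1 and Ankrd37, old replicate 3 was even below all young libraries, a pattern found in 1.46% of all genes. In their sums, the contractile and proliferation markers did not divide the old libraries in this way. Single contractile markers varied, with Cnn1 at 137, 134.5 and 64.1 CPM and Lmod1 at 133, 75.3 and 102 CPM in old replicates 1, 2 and 3. The summed contractile markers were at 5600, 3472 and 3549 CPM in old replicates 1, 2 and 3, and the summed proliferation markers at 527, 182 and 152 CPM, so old replicates 2 and 3 were close in both. Among the young libraries the contractile sum was highest in replicate 3, at 21203 CPM against 11277 and 16275 CPM, and the proliferation sum was 736, 483 and 738 CPM. The part of these differences in the results below was not tested, and in bulk RNA fewer cells of a kind and less RNA per cell cannot be told apart. Values that leave out old replicate 3 are given beside those from all libraries. That library was picked out because most members were lowest in it, so leaving it out raises most of their log2 fold changes. Calls without it are thus no separate support for a difference between the age groups.

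**Figure D1:**
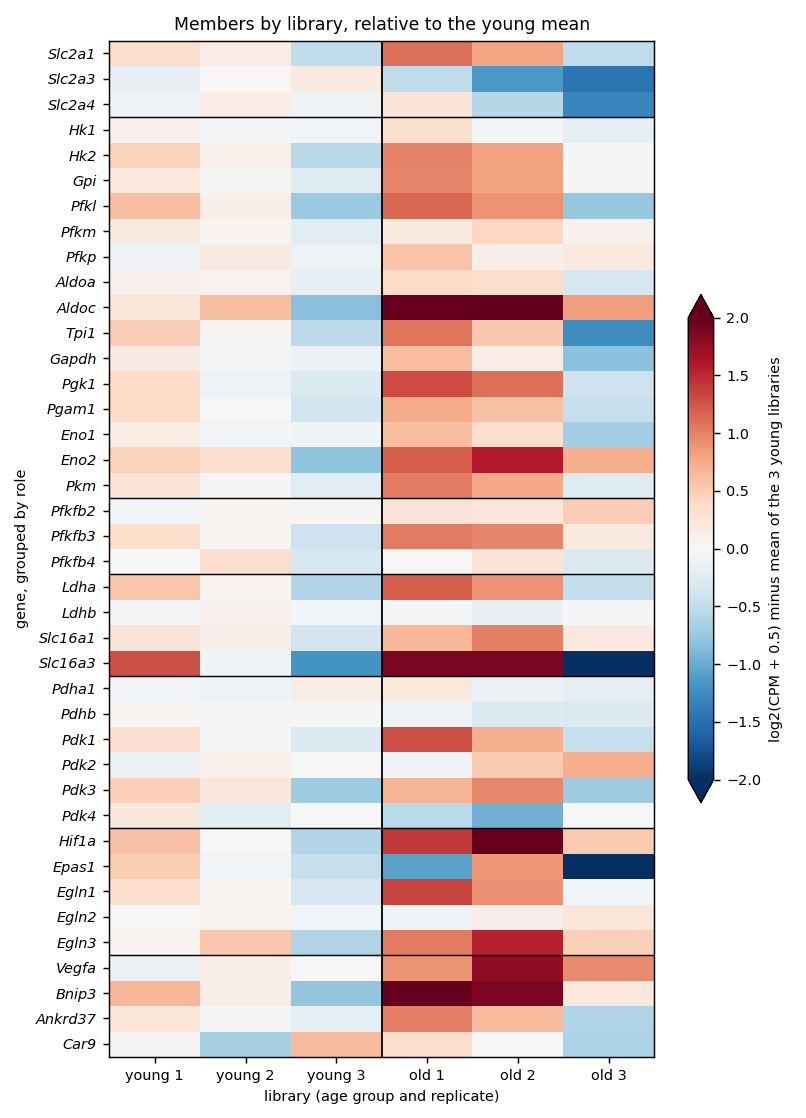
Heat map of the 40 genes (rows, grouped by role and separated by lines) in the 6 libraries (columns). Color gives log2(CPM + 0.5) minus the mean of the 3 young libraries, red above and blue below, and most rows are red in old 1 and old 2 and pale or blue in old 3.

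Between age groups, 31 of 40 members had a positive and 9 a negative log2 fold change (old over young), with a median of 0.42 and a range from -0.99 for Slc2a3 to 2.02 for Aldoc, while over all genes the median was 0.02 and 7534 of 14475 were higher. Of these, 0 members passed an adjusted p under 0.05 and a log2 fold change of 1 or more in size in edgeR's quasi-likelihood test, and of all genes 1 did (0.00691%). The lowest adjusted p of a member was 0.0762, for Vegfa, in the same test. At an unadjusted p under 0.05, edgeR had 9 members higher in old (11.2% of all genes were) and 1 member lower (11.5% of all genes). DESeq2's Wald test called 5 members by the same thresholds, namely Aldoc, Eno2, Hif1a, Vegfa and Bnip3, all upregulated, where it called 2.3% of all genes upregulated and 3.38% downregulated. limma-voom called 0 members, with 9 members higher (10.5% of all genes) and 1 lower (12.6% of all genes) at an unadjusted p under 0.05. The 3 old libraries were all above the 3 young libraries for 4 members, Aldoc, Eno2, Pfkfb2 and Vegfa (14.5% of all genes), and all below for 2 members, Slc2a3 and Pdhb (14.7% of all genes). Both counts, 4 of 40 and 2 of 40, were smaller shares than among all genes.

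Without old replicate 3, the library picked out from these same values, the median log2 fold change of the members was 0.76, with 35 higher and 5 lower. Of these, 20 were higher at an edgeR p under 0.05 before adjustment (8.12% of all genes) and 2 were lower (8.52% of all genes), and 0 members and 0 genes passed the adjusted threshold. DESeq2 then called 9 members (1.75% of all genes were called upregulated and 2.75% downregulated), adding Pgk1, Pdk1, Egln1 and Ankrd37 to the 5 named above. DESeq2 called 2 members upregulated, Aldoc and Vegfa, without young replicate 2 (1.75% of all genes) or without young replicate 3 (1.99% of all genes). Without old replicate 2 it called 1 member, Epas1, downregulated (2.44% of all genes) and 0 upregulated (1.89% of all genes). Without young replicate 1 it called the same 5 as with all libraries upregulated (2.37% of all genes) and Slc2a3 downregulated (2.93% of all genes). Without old replicate 1 it called Aldoc, Hif1a and Vegfa upregulated (3.7% of all genes) and Slc2a3 and Slc2a4 downregulated (5.82% of all genes). Without old replicate 1, edgeR called 2 members, Vegfa and Slc2a3, where 5.06% of all genes were called. Both libraries numbered 3 were the lowest of their group in most members. Without both of them the median log2 fold change of the members was 0.51, and edgeR called 0 members and 0 genes. DESeq2 then called 5 members, Aldoc, Bnip3, Hif1a, Pgk1 and Vegfa, all upregulated, and its share of all genes in this fit is not given.

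**Figure D2:**
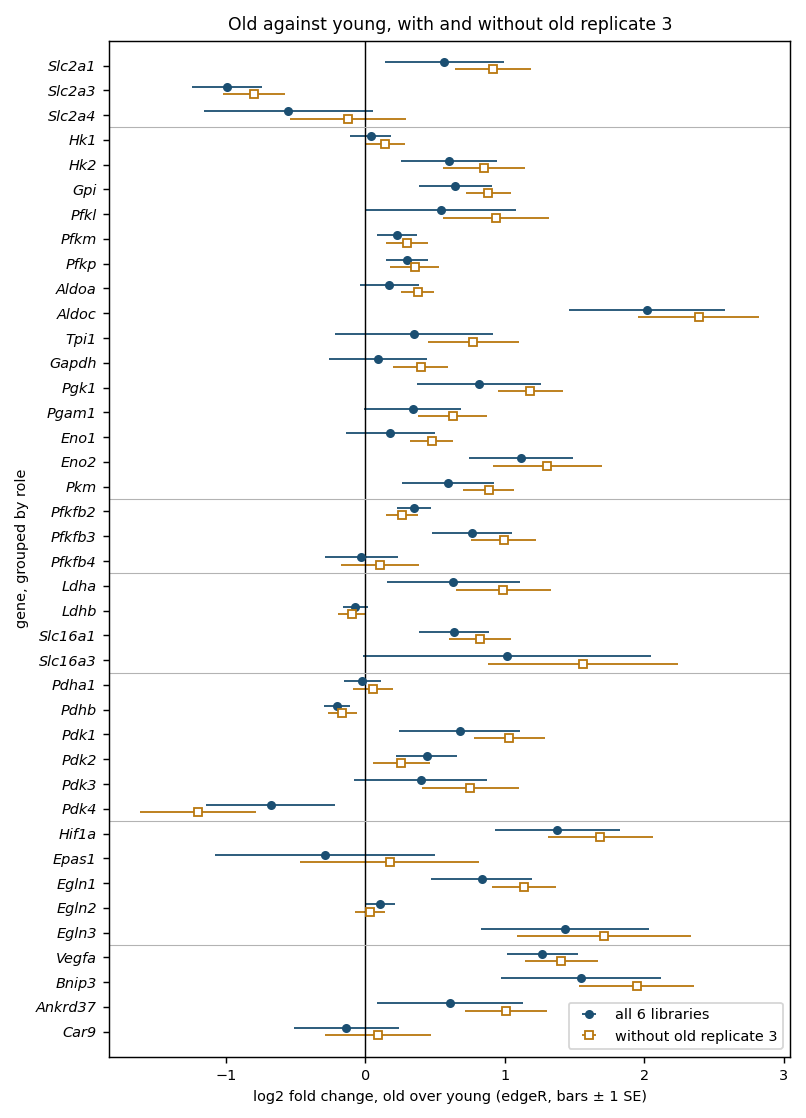
Log2 fold change of each of the 40 genes (old over young, edgeR, bars ± 1 SE), with all 6 libraries as filled circles and without old replicate 3 as open squares. Most squares lie to the right of their circles, with Aldoc at 2.02 and 2.39, whereas Slc2a3 stays below 0 in both.

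Hexose uptake held the only member that was lower in old with an edgeR p under 0.05 before adjustment. Slc2a3, which encodes the high-affinity glucose transporter GLUT3 (ENSRNOG00000008376), was read at 156, 174 and 197 CPM in young replicates 1, 2 and 3 and at 123, 79.1 and 63.5 CPM in old replicates 1, 2 and 3. Each old library was below each young library, with old replicate 3 the lowest. Slc2a3 averaged 176 ± 20.8 CPM in young against 88.5 ± 30.9 CPM in old (SD, n = 3 each). The log2 fold change was -0.99 (SE 0.25) with an adjusted p of 0.111 in edgeR. The DESeq2 adjusted p was 0.00624, and the gene missed the DESeq2 call only by its fold change, which was just under the threshold of 1. Without old replicate 1 the log2 fold change was -1.30 and edgeR called the gene (adjusted p = 0.0276), while leaving out old replicate 3 gave -0.80 (adjusted p = 0.202, edgeR). DESeq2 called it when young replicate 1 or old replicate 1 was left out. Slc2a1, encoding the ubiquitous transporter GLUT1, was higher in 2 of 3 old libraries. It was at 64.4, 55.8 and 34.9 CPM in young replicates 1, 2 and 3 and at 108, 86.6 and 35.1 CPM in old replicates 1, 2 and 3, so that old replicates 1 and 2 exceeded all young libraries and old replicate 3 matched the lowest of them. Its log2 fold change was 0.57 (SE 0.43) in edgeR, and 0.91 (SE 0.27) without old replicate 3. Slc2a4, the insulin-responsive transporter GLUT4, was barely read, at 1.42 to 1.75 CPM in young and 0.317 to 1.95 CPM in old, and its log2 fold change of -0.55 (SE 0.61) passed no test with all libraries.

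All 15 glycolytic enzymes had a positive log2 fold change with edgeR, DESeq2 and both other scalings, with the exception of Gapdh at -0.02 in limma-voom, and the median was 0.35 (0.77 without old replicate 3). Of the 15, 0 passed the adjusted threshold of edgeR, 3 were higher at an unadjusted p under 0.05, namely Gpi, Aldoc and Eno2 (11.2% of all genes), and DESeq2 called 2 upregulated (2.3% of all genes). Their summed level was 5331, 4405 and 3825 CPM in young replicates 1, 2 and 3, and 7980, 6538 and 3147 CPM in old replicates 1, 2 and 3. Old replicates 1 and 2 thus carried the highest and old replicate 3 the lowest sum of all 6 libraries.

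The largest differences among the enzymes belonged to isozymes best known from brain. Aldoc, the brain aldolase that cleaves fructose 1,6-bisphosphate (ENSRNOG00000011452), was at 8.46, 11.0 and 3.75 CPM in young replicates 1, 2 and 3 and at 36.4, 44.7 and 13.1 CPM in old replicates 1, 2 and 3. The groups did not overlap, although old replicate 3 was only slightly above young replicate 2. The log2 fold change was 2.02 (SE 0.56), or 4.05-fold, with an adjusted p of 0.125 in edgeR and 0.00302 in DESeq2. Leaving out single libraries moved it between 1.68 and 2.39, and DESeq2 lost the call without old replicate 2. Eno2, the neuronal enolase (ENSRNOG00000013141), which forms phosphoenolpyruvate, was at 119.5, 110.2 and 49.4 CPM in young and 199, 261 and 144 CPM in old, in the order of replicates 1, 2 and 3. Again the groups did not overlap, and both libraries numbered 3 were the lowest of their group. Its log2 fold change was 1.11 (SE 0.37), or 2.16-fold, with an adjusted p of 0.167 in edgeR and 0.0341 in DESeq2. DESeq2 kept this call without young replicate 1 or old replicate 3 and lost it without any other single library.

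The common isozymes of the same steps differed less. Aldoa, the muscle aldolase, was at 21.4 to 26.0 CPM in young and 19.1 to 32.0 CPM in old (log2 fold change 0.17, SE 0.21), and Eno1, the ubiquitous enolase, at 707 to 832 and 466 to 1156 CPM (log2 fold change 0.18, SE 0.32). For both, the level in old replicate 3 was the lowest and that in old replicate 1 the highest of all libraries. Hk1, the housekeeping hexokinase that traps glucose as glucose 6-phosphate, was nearly level, at 196, 178 and 178 CPM in young replicates 1, 2 and 3 and 228, 178 and 161 CPM in old replicates 1, 2 and 3. Hk2, the inducible hexokinase, had a log2 fold change of 0.60 (SE 0.34) with levels of 47.1, 36.5 and 23.1 CPM in young and 68.2, 60.0 and 33.4 CPM in old. For Hk2 the lowest old library, replicate 3, lay between young replicates 2 and 3.

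Several other enzymes repeated the split among the old libraries. Pgk1, phosphoglycerate kinase, which makes the first ATP of the pathway, was at 659, 470.4 and 411 CPM in young replicates 1, 2 and 3 and 1249, 1082 and 376 CPM in old replicates 1, 2 and 3. Old replicates 1 and 2 were above and old replicate 3 was below every young library. Its log2 fold change was 0.81 (SE 0.45, adjusted p = 0.315, edgeR) with all libraries and 1.18 (SE 0.23) without old replicate 3, where DESeq2 called it (adjusted p = 0.000217). Pkm, pyruvate kinase, the last step, was at 589, 479.7 and 428 CPM in young and 1001, 839 and 415 CPM in old, again with old replicate 3 below all young libraries. Gpi, the isomerase that turns glucose 6-phosphate into fructose 6-phosphate, was at 269.6, 238 and 198 CPM in young and 459.7, 408 and 236 CPM in old. Here old replicate 3 was just below young replicate 2, and the log2 fold change was 0.64 (SE 0.26), or 0.88 (SE 0.16) without that library.

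Tpi1, triosephosphate isomerase, had the widest old spread of the 15 enzymes relative to its mean. It was at 454, 329.9 and 226 CPM in young replicates 1, 2 and 3 and 682, 469 and 136 CPM in old replicates 1, 2 and 3. Its log2 fold change of 0.35 (SE 0.56) turned to -0.16 without old replicate 1. Gapdh, glyceraldehyde 3-phosphate dehydrogenase and a common reference gene, was at 1411, 1225 and 1156 CPM in young and 1932, 1395 and 712 CPM in old. Its mean hardly differed (1264 ± 132 CPM in young against 1346 ± 612 CPM in old, SD, n = 3), but the old SD was several times the young SD. Pgam1, phosphoglycerate mutase, had a log2 fold change of 0.34 (SE 0.35). Of the phosphofructokinase subunits, which commit sugar to glycolysis, the liver form Pfkl was at 49.0 to 126 CPM in young and 48.2 to 183 CPM in old (log2 fold change 0.54, SE 0.54). The muscle form Pfkm (log2 fold change 0.23, SE 0.14) and the platelet form Pfkp (log2 fold change 0.30, SE 0.15) varied less, with old levels of 48.6 to 61.7 and 72.8 to 99.7 CPM. Several of these genes have near-identical copies in the rat genome, and rows named Ldhal6b, Pgk1l1, Tpi1l1, Tpi1l2 and Pkml1 held between 16 and 542 counts per library. How reads shared with such copies were counted is not stated in the sources at hand, which leaves the levels of these genes uncertain.

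**Figure D3:**
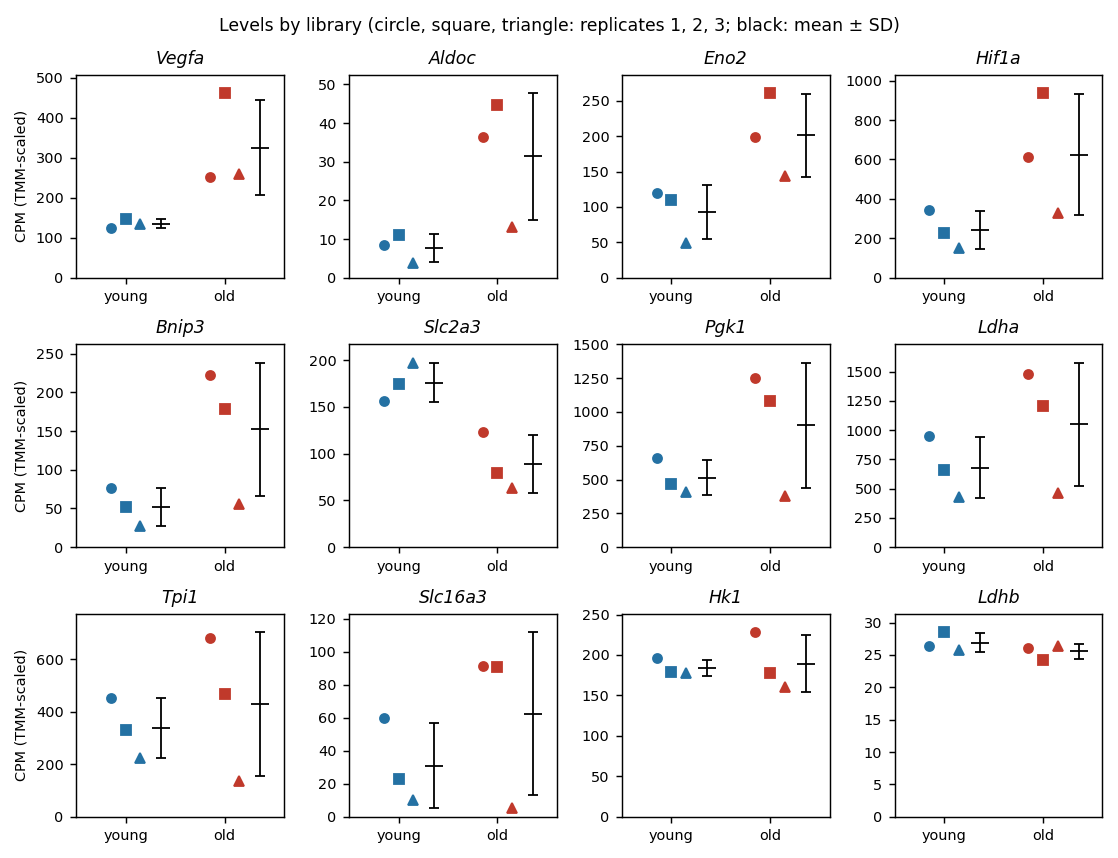
CPM on TMM-scaled library sizes of 12 members in each library (vertical axes start at 0; blue young, red old; circle, square and triangle for replicates 1, 2 and 3; black, mean ± SD). Vegfa, Aldoc and Eno2 separate the groups upward and Slc2a3 downward, whereas in Pgk1, Tpi1 and Slc16a3 the old triangle falls below all young points.

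Phosphofructokinase is activated by fructose 2,6-bisphosphate, which the bifunctional Pfkfb enzymes make and remove. Pfkfb3, the strongly kinase-biased and inducible form, was at 21.4, 17.2 and 12.3 CPM in young replicates 1, 2 and 3 and 34.5, 32.9 and 19.1 CPM in old replicates 1, 2 and 3. Only old replicate 3 lay within the young range, and the log2 fold change was 0.77 (SE 0.29) with an adjusted p of 0.194 in edgeR. Pfkfb2, known as the heart form, was one of the few members in which old replicate 3 was highest. Its levels of 10.01, 10.8 and 10.6 CPM in young and 12.6, 12.5 and 14.9 CPM in old did not overlap, but the difference was small (log2 fold change 0.35, SE 0.12, adjusted p = 0.174, edgeR). Pfkfb4 was at 3.62 to 6.17 CPM in young and 3.82 to 5.77 CPM in old (log2 fold change -0.03, SE 0.26).

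At the lactate branch, Ldha followed the enzymes above it and Ldhb did not. Ldha, the subunit that favors the reduction of pyruvate to lactate, was at 946, 659 and 427 CPM in young replicates 1, 2 and 3 and 1481, 1205 and 459.9 CPM in old replicates 1, 2 and 3. Old replicate 3 lay just above the lowest young library, and the log2 fold change was 0.63 (SE 0.48) with all libraries and 0.99 (SE 0.34) without it. Ldhb, the subunit that favors lactate oxidation, varied little, at 26.3, 28.5 and 25.7 CPM in young and 26.0, 24.3 and 26.3 CPM in old (log2 fold change -0.07, SE 0.09). The 6 libraries overlapped within this narrow range. Slc16a3, encoding the lactate exporter MCT4, was the member with the largest standard error. Its levels were 59.7, 22.9 and 10.4 CPM in young replicates 1, 2 and 3 and 91.3, 91.0 and 5.41 CPM in old replicates 1, 2 and 3. The old group thus held both the highest levels and the lowest level of the 6 libraries, and the log2 fold change of 1.01 (SE 1.03) had an adjusted p of 0.573 in edgeR. Slc16a1, encoding MCT1, which carries lactate in either direction, was at 72.8, 66.2 and 46.7 CPM in young and 96.2, 122 and 69.9 CPM in old (log2 fold change 0.64, SE 0.25, adjusted p = 0.206, edgeR). For Slc16a1 only old replicate 3 overlapped with the young libraries.

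The subunits of pyruvate dehydrogenase itself were close to level. Pdha1, the catalytic alpha subunit, was at 96.3 to 113 CPM in young and 90.5 to 119 CPM in old (log2 fold change -0.02, SE 0.14). Pdhb, the beta subunit, was at 70.1, 66.9 and 67.3 CPM in young and 65.1, 56.5 and 55.8 CPM in old, so every old library was below every young library, by a small amount (log2 fold change -0.20, SE 0.09, adjusted p = 0.249, edgeR). The 4 kinases that inactivate the complex differed from each other. Pdk1, the classical hypoxia-induced kinase, was at 21.3, 16.3 and 13.7 CPM in young replicates 1, 2 and 3 and 42.0, 27.9 and 12.1 CPM in old replicates 1, 2 and 3. It showed the split of the glycolytic enzymes, with a log2 fold change of 0.68 (SE 0.43) and of 1.03 (SE 0.25) without old replicate 3, where DESeq2 called it (adjusted p = 0.0124). Pdk3 was at 37.1 to 85.2 CPM in young and 37.3 to 119.6 CPM in old, with old replicate 3 at the low end (log2 fold change 0.40, SE 0.48). Pdk2 had the opposite order among the old libraries, 13.5, 20.7 and 23.9 CPM in replicates 1, 2 and 3 against 13.2, 15.4 and 14.3 CPM in young (log2 fold change 0.44, SE 0.22). Pdk4, which is induced by fasting and fatty acids, was read at only 0.964 to 1.51 CPM in young and 0.385 to 1.23 CPM in old, and its log2 fold change was -0.68 (SE 0.46). No kinase and no subunit passed a call in edgeR or DESeq2 with all libraries.

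Among the oxygen sensors, Hif1a, which encodes the alpha subunit of HIF-1 (ENSRNOG00000008292), was at 342, 228 and 152 CPM in young replicates 1, 2 and 3 and 610.0, 937 and 327 CPM in old replicates 1, 2 and 3. Old replicates 1 and 2 were well above the young libraries, and old replicate 3 was slightly below young replicate 1. The log2 fold change was 1.38 (SE 0.45), or 2.59-fold, with an adjusted p of 0.160 in edgeR and 0.0196 in DESeq2, and 1.68 (SE 0.37) without old replicate 3. DESeq2 lost the call without young replicate 2, young replicate 3 or old replicate 2. Epas1, encoding the alpha subunit of HIF-2, did not follow. Its levels of 10.7, 7.06 and 5.21 CPM in young and 3.24, 14.0 and 1.47 CPM in old put old replicate 2 highest and the other two old libraries lowest, and the log2 fold change was -0.29 (SE 0.79).

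The prolyl hydroxylases mark the HIF alpha subunits for degradation, and the genes Egln1 and Egln3 are themselves known HIF targets. Egln1, the main oxygen sensor PHD2, was at 35.2, 29.0 and 22.3 CPM in young replicates 1, 2 and 3 and 72.9, 53.9 and 27.3 CPM in old replicates 1, 2 and 3. The difference on the log2 scale was 0.83 (SE 0.36, adjusted p = 0.232, edgeR), or 1.14 (SE 0.23) without old replicate 3, which overlapped with the young libraries. Egln3 (PHD3) had a larger log2 fold change of 1.43 (SE 0.60) at a very low level, with 0.265 to 1.20 CPM in young and 1.12 to 2.89 CPM in old, and its 13 counts in young replicate 3 were the lowest count of any member. Egln2 (PHD1), which is not a typical HIF target, was steady at 34.5 to 37.8 CPM in young and 34.0 to 42.5 CPM in old (log2 fold change 0.10, SE 0.11).

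Of the hypoxia response genes, Vegfa gave the lowest p of the set. Vegfa (ENSRNOG00000019598) was at 124, 146 and 134 CPM in young replicates 1, 2 and 3 and 251, 461 and 260.0 CPM in old replicates 1, 2 and 3. Even the lowest old library was well above the highest young library, and old replicate 3 was not the lowest of its group. The mean rose from 135 ± 11.2 CPM to 324 ± 119 CPM (SD, n = 3 each) by the DESeq2 test (adjusted p = 0.000179), with a log2 fold change of 1.27 (SE 0.25), or 2.41-fold, and an adjusted p of 0.0762 in edgeR. Without old replicate 1 the edgeR adjusted p was 0.0367, with a log2 fold change of 1.42, and without old replicate 2 neither edgeR nor DESeq2 called the gene, its log2 fold change then being 0.92. Bnip3, a mitochondrial protein that drives mitophagy in hypoxia (ENSRNOG00000017243), was at 76.2, 52.4 and 27.5 CPM in young and 222, 178 and 55.7 CPM in old, in the order of replicates. Old replicates 1 and 2 stood far above the young libraries, while old replicate 3 lay between young replicates 1 and 2. For Bnip3 the log2 fold change was 1.55 (SE 0.57), or 2.92-fold, with an adjusted p of 0.190 in edgeR and 0.0375 in DESeq2, and 1.94 (SE 0.41) without old replicate 3. DESeq2 lost the call without young replicate 2, young replicate 3, old replicate 1 or old replicate 2. Ankrd37, a small ankyrin repeat protein and known HIF-1 target, was at 1.95, 1.51 and 1.30 CPM in young and 3.68, 2.71 and 0.858 CPM in old (log2 fold change 0.60, SE 0.52), again with old replicate 3 lowest of all. Car9, the carbonic anhydrase that is a standard marker of hypoxia, did not share the pattern. It was at 42.8, 26.3 and 65.5 CPM in young and 53.7, 41.9 and 26.9 CPM in old, with the highest level in young replicate 3, and its log2 fold change was -0.14 (SE 0.38).

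HIF binds DNA at a core motif, of which 1 form reads ACGTG on one strand, and only this form was searched. Promoter sequences were taken from RefSeq on the assembly GRCr8, in which 37 of 40 members had an entry, and the 250 bases before each annotated start were searched on both strands. The motif also forms part of the E-box CACGTG, which matches on both strands and is counted once. Of 42 entries of members, 17 (40.5%) held the motif, compared with 16.6% of all 33469 entries and 21.2% of the 12022 entries of genes in the count table. The E-box was in 19.0% of the entries of members, 5.59% of all entries and 7.87% of those of genes in the count table. The median GC content was 63.0% for members, 51.2% for all entries and 59.6% for genes in the count table, and its part in these shares was not tested. The set holds genes picked as targets of HIF, so a higher share is in part built into the choice of members. The match is a description of letters and shows no binding. Of the 5 members called by DESeq2, 4 held the motif, at position -31 in Aldoc, -139 in Eno2, -99 in Bnip3, and -229 and -164 in Hif1a, where -1 is the base before the start and the number gives the first base of the capitals, while the 2 entries of Vegfa held none in this window. Counted by gene, 17 of the 37 members with an entry held the motif, and most of these were not called. A link between motif and call was not tested. The windows of the 4 called genes with the motif are shown because their genes carried the calls, 5′ to 3′ on the strand of the gene, with the matches in capitals.
Aldoc, GRCr8 chr10:63715294-63715543, plus strand: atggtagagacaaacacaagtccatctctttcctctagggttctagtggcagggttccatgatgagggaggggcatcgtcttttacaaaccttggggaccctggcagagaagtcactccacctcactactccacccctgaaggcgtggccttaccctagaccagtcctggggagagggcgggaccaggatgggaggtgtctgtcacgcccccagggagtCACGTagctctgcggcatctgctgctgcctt
Eno2, GRCr8 chr4:159267221-159267470, minus strand: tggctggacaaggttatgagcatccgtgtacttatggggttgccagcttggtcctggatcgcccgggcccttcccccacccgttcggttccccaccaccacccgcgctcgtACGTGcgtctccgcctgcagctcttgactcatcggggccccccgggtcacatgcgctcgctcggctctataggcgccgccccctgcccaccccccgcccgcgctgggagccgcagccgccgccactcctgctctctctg
Hif1a, GRCr8 chr6:98359648-98359897, plus strand: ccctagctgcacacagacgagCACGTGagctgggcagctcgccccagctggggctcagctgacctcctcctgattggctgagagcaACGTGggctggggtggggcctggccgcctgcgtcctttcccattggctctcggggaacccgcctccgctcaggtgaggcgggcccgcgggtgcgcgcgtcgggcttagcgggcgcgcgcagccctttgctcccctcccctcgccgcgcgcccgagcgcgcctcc
Bnip3, GRCr8 chr1:203154963-203155212, minus strand: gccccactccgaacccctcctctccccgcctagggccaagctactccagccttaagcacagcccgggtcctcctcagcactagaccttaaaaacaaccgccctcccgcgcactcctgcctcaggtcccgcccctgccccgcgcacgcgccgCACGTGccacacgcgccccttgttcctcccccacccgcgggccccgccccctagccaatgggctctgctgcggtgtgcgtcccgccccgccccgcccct
The match in Bnip3 and the farther match in Hif1a are E-boxes, and that in Aldoc reads ACGTG on the opposite strand.

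A ratio of 2 genes within a library does not depend on library scaling, and 17 pairs within families were compared as log2 ratios of counts. In 7 of 17 pairs the 3 old libraries lay all above (2) or all below (5) the young libraries. For levels of single genes, 14.5% of all genes lay all above and 14.7% all below. No share over other ratios was computed, and several pairs share a gene, so the pairs are not independent. For 3 against 3 libraries the smallest two-sided p of the exact permutation test is 0.1, which these 7 pairs reached, and after adjustment over 17 pairs it was 0.243, so none could pass a threshold of 0.05. The ratio of Aldoc to Aldoa was -1.62, -1.20 and -2.52 in young and 0.19, 0.53 and -0.55 in old, a difference of 1.84 (standard error 0.50) on the log2 scale. That of Eno2 to Eno1 was -2.80, -2.72 and -3.84 in young and -2.54, -1.85 and -1.70 in old, a difference of 1.09 (standard error 0.44). In both, all old libraries including replicate 3 were shifted toward the isozyme best known from brain.

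Downward shifts were seen in 5 pairs. Slc2a3 to Slc2a1 went from 1.27, 1.64 and 2.50 in young replicates 1, 2 and 3 to 0.19, -0.13 and 0.85 in old replicates 1, 2 and 3, a difference of -1.50 (standard error 0.46). Epas1 to Hif1a was almost the same in the young libraries, -5.01, -5.01 and -4.87, and lower and more scattered in the old libraries, -7.56, -6.06 and -7.79. The difference of -2.18 (standard error 0.54) was the largest of the 17 pairs. The other 3 were Slc2a4 to Slc2a1 (-1.37, standard error 0.40), Pdk4 to Pdk2 (-1.22, standard error 0.55) and Pfkfb4 to Pfkfb3 (-0.77, standard error 0.25), of which the first 2 rest on genes below 2 CPM. The groups overlapped in the other 10 pairs. Ldhb to Ldha, for example, was -5.17, -4.53 and -4.05 in young and -5.83, -5.63 and -4.13 in old, with old replicate 3 within the young range.

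**Figure D4:**
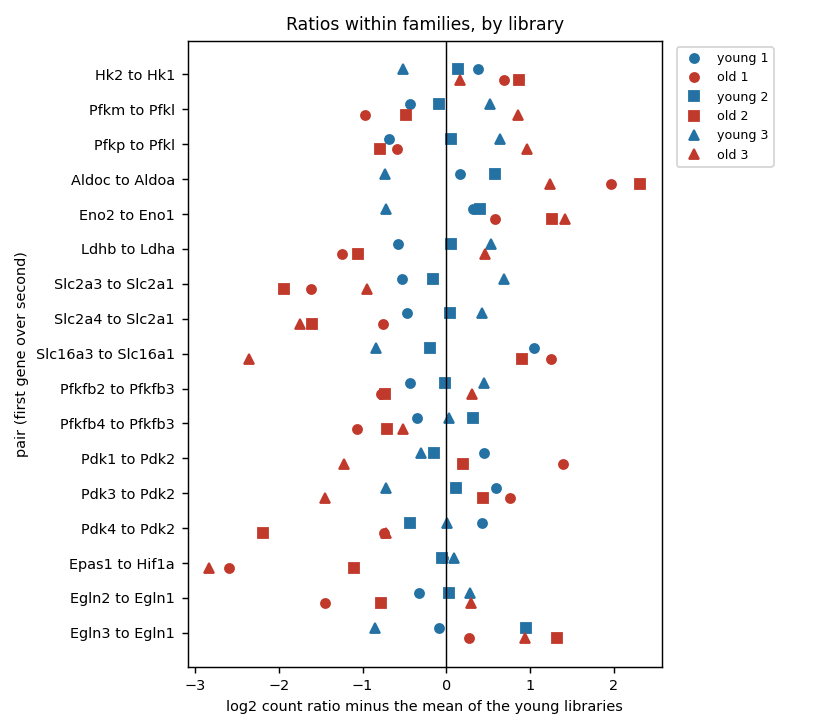
Log2 count ratio of each of 17 gene pairs in each library, minus the mean of the 3 young libraries (blue young, red old; circle, square and triangle for replicates 1, 2 and 3). All red points lie right of all blue points for Aldoc to Aldoa and Eno2 to Eno1, and left of them for 5 pairs, with Epas1 to Hif1a farthest at a difference of -2.18.

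Other genes of the same pathways were followed as well, 89 of 106 listed symbols being among the rows. Of the 89, 61 were higher and 28 lower in old, their median log2 fold change was 0.20 (also 0.20 without old replicate 3), and 0 were called by edgeR. At an unadjusted p under 0.05, edgeR had 19 of the 89 higher and 7 lower, where 11.2% and 11.5% of all genes were. DESeq2 called 5 upregulated and 6 downregulated, where it called 2.3% and 3.38% of all genes. Other hypoxia response genes came closest to the members, with 26 of 32 higher and a median of 0.52 (0.65 without old replicate 3). Other glycolytic isozymes (8 of 17 higher), other pyruvate handling genes (6 of 12 higher) and pentose phosphate genes (4 of 6 higher) had medians of -0.17, 0.02 and 0.10.

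The named genes among the other hypoxia response genes differed in both directions. Ddit4, which encodes the mTORC1 inhibitor REDD1, was at 17.8, 15.7 and 12.7 CPM in young and 67.1, 103 and 45.4 CPM in old (log2 fold change 2.22, SE 0.31, adjusted p = 0.0545 in edgeR and 2.26e-09 in DESeq2). Stc2, a secreted stanniocalcin induced by stress, was at 2.79, 3.16 and 3.42 CPM in young and 28.0, 50.9 and 9.31 CPM in old (log2 fold change 3.23, SE 0.60, adjusted p = 0.0658 in edgeR and 2.35e-07 in DESeq2). In both genes the old libraries were far above the young ones, with replicate 3 the lowest of the old. Ppp1r3c, a glycogen-targeting subunit of protein phosphatase 1, was at 10.5 to 14.3 CPM in young and 21.7 to 32.8 CPM in old (log2 fold change 1.30, SE 0.21), and DESeq2 called it. Cox4i2, a cytochrome oxidase subunit isoform induced by low oxygen, repeated the split of the members in an extreme form, with 1.28, 0.565 and 0.855 CPM in young and 6.47, 10.02 and 0.466 CPM in old. The difference of 2.65 (SE 0.99) on the log2 scale was called by DESeq2 and had an adjusted p of 0.192 in edgeR.

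Lower in old was Edn1, the gene of the vasoconstrictor endothelin-1, at 34.4, 62.6 and 122 CPM in young and 18.1, 10.5 and 15.7 CPM in old (log2 fold change -2.31, SE 0.48). DESeq2 called it downregulated, and in edgeR the adjusted p was 0.0802. Edn1 is also known as a target of signals other than hypoxia, TGF-beta among them. Ppfia4, a liprin, was at 4.72 to 13.6 CPM in young and 2.23 to 2.61 CPM in old (log2 fold change -1.83, SE 0.39) and was called downregulated by DESeq2. Cited2, which competes with HIF-1 alpha for its coactivators and so restrains it, was at 134, 175 and 216 CPM in young and 64.0, 38.9 and 33.9 CPM in old. The log2 fold change of -1.94 (SE 0.29) came with an adjusted p of 0.0557 in edgeR and 5.19e-08 in DESeq2, and no old library reached the lowest young library.

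Among transporters and isozymes, the named genes were all at low levels. Slc16a7, encoding the high-affinity pyruvate and lactate transporter MCT2, was at 9.70, 11.0 and 23.2 CPM in young and 8.52, 3.00 and 5.11 CPM in old (log2 fold change -1.40, SE 0.49), and Pfkfb1, the liver form of the bifunctional enzyme, at 1.28 to 2.24 CPM and 0.634 to 0.925 CPM (log2 fold change -1.23, SE 0.32). DESeq2 called both downregulated, and the groups did not overlap in either. Slc2a5, the fructose transporter GLUT5, was at 0.216 to 0.631 CPM in young and 1.12 to 1.44 CPM in old (log2 fold change 1.40, SE 0.44) and was called upregulated by DESeq2. Hk3 had 4, 8 and 0 counts in the young and 10, 22 and 35 counts in the old libraries, and no test called it.

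Markers of cell types and of growth also differed between the groups. The 10 contractile genes were all lower in old with all libraries (median log2 fold change -1.89), 9 of them at an unadjusted p under 0.05 in the edgeR fit. The 10 proliferation genes were all lower (median -1.29), 4 of them at that threshold. The 9 fibroblast genes in the table were all higher (median 1.39), 5 of them at that threshold, with sums of 15285 to 21427 CPM in young and 29851 to 33642 CPM in old, nearly all of it Col1a1. Old replicate 3 was the highest of the 6 libraries in this fibroblast sum. The part of cell makeup or growth state in the results above was not tested.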

How the data were processed

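RNA of VSM cells cultured from SFA of 3 young and 3 old Fischer 344 rats was sequenced as paired reads from stranded polyadenylated libraries. The authors trimmed the reads with Cutadapt 3.5 through Trim Galore 0.6.7, aligned them with STAR 2.7.10b to Rnor 6.0 of the rat, and ran featureCounts of Subread 2.0.8. The deposited values are raw counts per gene, whole numbers without normalization. The study names a RefSeq annotation while the table gives Ensembl identifiers, and how featureCounts treated strand, mates and multi-mapping reads is not stated in the sources at hand. Of the nonzero counts below 20, 68.7% to 71.1% per library were even, as counting both mates of a pair would leave. Each library's total of counts was also above the highest depth in reads per sample that the study gives. Every row reaches 10 counts in 3 or more libraries, so genes below that level are not analysed here.

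The test was edgeR 4.0.16 under R 4.3.3 (quasi-likelihood F test after TMM, Benjamini-Hochberg over 14475 genes), with young as the reference and no covariate. Calls needed an adjusted p under 0.05 together with a log2 fold change of 1 or more in size. SE is the size of the log2 fold change over the root of F. DESeq2 1.42.0 (Wald test, independent filtering, 292 genes without an adjusted p) and voom of limma 3.58.1 served as other tests of these counts, and all 3 steps were tested on simulated counts. Family ratios were log2 ratios of counts compared with a two-sided exact permutation test. The members and lists were chosen with earlier results of these data known. All 40 members were named, and other pathway genes where edgeR or DESeq2 called them or where their log2 fold change was 1 or more in size with groups that did not overlap; a gene that meets this rule is not reported here. Marker genes were named where they define a list, lead it in level or show how its members differ. Alternatives were another scaling, other filters on low counts, halved counts, other thresholds, the replicate number as a block and each library left out in turn. Leaving out both libraries numbered 3, and the alternatives for the other pathway genes, were added after seeing the data. The replicates were checked as separate libraries, with a chi-square per gene of at least 67.1 between libraries of a group. Sampling noise gives about 1, or more if both mates of a pair were counted. Promoters were matched by symbol to RefSeq sequences of GRCr8, a later assembly than that of the reads. GO and KEGG terms were not analysed here.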

Additional observations from a re-analysis of the deposited data

How the results depend on the processing

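The median log2 fold change of the members stayed positive under each alternative, from 0.23 without old replicate 1 to 0.76 without old replicate 3. Calls moved more. Of all genes, edgeR called 65 above 1 CPM in at least 3 libraries and 381 at an adjusted p under 0.1, DESeq2 called 805, limma-voom 0, and edgeR 0 without both libraries numbered 3 and from 0 to 732 with single libraries left out. Of the members, DESeq2 called 5, edgeR 1 at an adjusted p under 0.1 and from 0 to 2 with single libraries left out, and DESeq2 from 1 to 9 in the same way. Of the other pathway genes, edgeR called 1 above 1 CPM, 6 at an adjusted p under 0.1 and from 0 to 5 with single libraries left out, and DESeq2 called 11. The cause was not tested.

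Log2 fold changes close to 0 changed sign. Gapdh was at -0.017 with limma-voom and at -0.017 with the replicate block. Without both libraries numbered 3, Pdha1 was at 0.13 and Car9 at 0.47, and the log2 ratio differences of Slc16a3 to Slc16a1 and of Pdk3 to Pdk2 were 0.66 and 0.24. With single libraries left out, the values ran from -0.12 to 0.14 for Hk1, from -0.16 to 0.77 for Tpi1, from -0.26 to 0.40 for Gapdh, from -0.10 to 0.47 for Eno1, from -0.20 to 0.18 for Pfkfb4, from -0.15 to 0.054 for Pdha1, from -1.70 to 0.17 for Epas1 and from -0.41 to 0.24 for Car9. The ratio differences ran from -0.73 to 0.19 for Pfkm to Pfkl, from -0.69 to 0.19 for Pfkp to Pfkl, from -0.73 to 1.08 for Slc16a3 to Slc16a1, from -0.52 to 0.80 for Pdk1 to Pdk2 and from -0.51 to 0.60 for Pdk3 to Pdk2.

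The replicate numbers were not taken as pairs. Deviations from the group means of young and old libraries with the same number correlated across 12257 genes at 0.06, 0.31 and 0.29 for numbers 1, 2 and 3, and not each library correlated best with its own number. Young replicate 3 and old replicate 3 did correlate best with each other, and a factor shared by them was not tested. With the replicate block edgeR called 1 gene and 0 members, the median of the members was 0.37, and DESeq2 called 7 members, adding Egln3 upregulated and Slc2a3 downregulated to the 5 (2.44% of all genes were called upregulated and 4.63% downregulated).

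Counting error is large for named genes with few counts, among them Hk3, Slc2a5, Pdk4, Slc2a4 and Egln3, more so if both mates of a pair were counted.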
